A study of Mus musculus with 2 samples.

Results

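The regions described here are broad peaks of the histone mark H3K27ac with a high signal value that were called in the atrioventricular canal (AVC) of the embryonic mouse heart and had no called peak of the heart chambers nearby. They were chosen from the AVC peak list, without the mitochondrial genome and the sex chromosomes, by a signal value at or above that of the 10000th peak (47), a width of at least 500 bp, and no chamber peak overlapping or within 1 kb. The rule was met by 2175 of 86942 autosomal AVC peaks, which covered 1.69 Mb. They are called AVC-only peaks below. The signal, the width and the missing chamber peak chose them, so those values are a description and no evidence of a tissue difference.

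Both libraries came from FVB/N embryos of stage E10.5 labelled Katushka+ EGFP+, that is, carrying a red and a green fluorescent reporter. The AVC library was made from sorted EGFP-positive cells and the chamber library from sorted Katushka-positive cells. Neither the promoters that drive the reporters nor any pooling of embryos is stated in the sources used here. Each tissue had 1 library and the depth is unknown, so no test between tissues was made, and the exact Clopper-Pearson 95% intervals printed after shares cover counting error only.

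H3K27ac is an acetyl group on lysine 27 of histone H3, written by the coactivators p300 and CBP and found at active promoters and enhancers. The AVC is the slowly conducting muscle segment between the atria and the ventricles. It later contributes the atrioventricular node, and its signals act on the endocardium to form the valve cushions. There the T-box repressors Tbx2 and Tbx3, with Bmp2 signalling upstream, keep chamber genes such as Nppa, a natriuretic peptide, and Gja5, a connexin of fast conduction, low. A chamber peak that was not called may still have lain just under the caller's threshold. A reference of the mm9 build was not used here, so the peaks are given by mm9 position (1-based), without gene names, promoter status or bases, and the cell types in the sort were not checked against marker genes.

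Among the 10056 AVC peaks at or above the signal limit, 6399 were at least 500 bp wide. Of these broad peaks, 3604 overlapped a chamber peak, 620 had a chamber peak within 1 kb without overlap, and 2175 were AVC-only, which is 34.0%. The same percentage was 67.2% over all autosomal AVC peaks and 23.4% over all AVC peaks at or above the signal limit. The rule used this contrast, and nothing is read from the difference between these percentages. The corresponding rule applied to the chamber list gave 1014 of 5226 high-signal broad chamber peaks without an AVC peak within 1 kb, 19.4%. The chamber list held fewer autosomal peaks, 66142, and equal ranks do not stand for equal enrichment.

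The AVC-only peaks lay at the lower end of the high-signal range. Their signal value ran from 47 to 127 with a median of 52 (interquartile range 49 to 57), and 1782 of the 2175 (81.9%) were under 60. The autosomal AVC peaks of any width, those under 500 bp included, with a higher value than any of them numbered 1965. All broad peaks among these overlapped a chamber peak. Of the overlapping broad peaks, 172 of 3604 (4.77%) exceeded 127, and their median was 60 (52 to 74). The deposited score, the caller's Log(ER), ran from 4.46 to 16.12 over the AVC-only peaks, and 38 of them (1.75%) scored 10 or more. The peaks were broad by the rule, with a median width of 755 bp (661 to 863) and a maximum of 1719 bp, and 184 were at least 1000 bp wide. Chamber-only peaks of the corresponding rule had a median width of 621 bp (561 to 718). The lists themselves differed in the same direction, with a median of 472 bp over autosomal AVC peaks and 326 bp over autosomal chamber peaks.

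**Figure D1:**
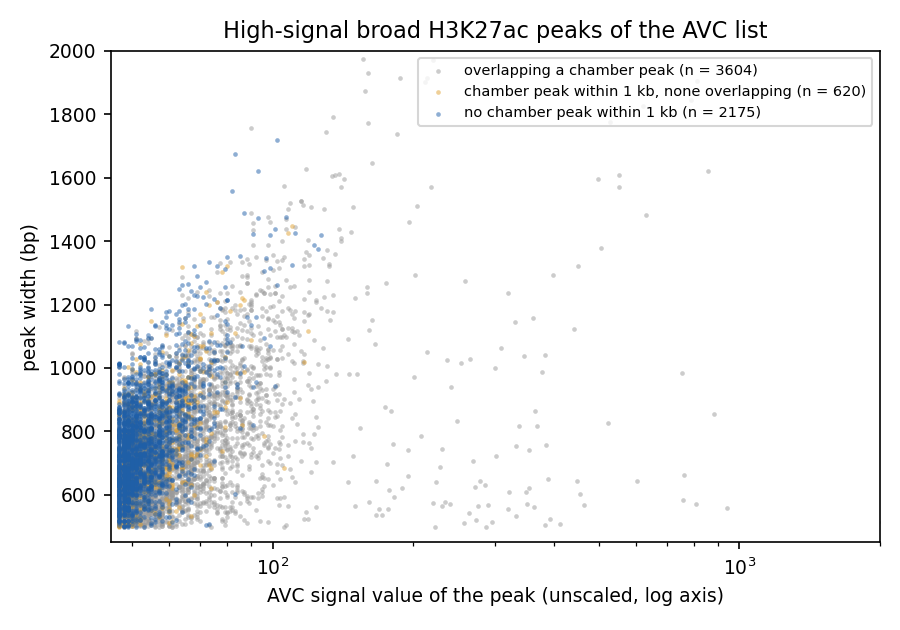
Signal value (log axis, unscaled) against width in bp for the 6399 high-signal broad AVC peaks, coloured by the presence of a chamber peak. AVC-only peaks, in blue, end at a signal of 127, while overlapping peaks, in grey, reach further; 21 peaks above 2000 on either axis, none of them AVC-only, lie outside the plot.

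The limits of the rule cut through a dense part of the list. At the signal limit of 47 there were 271 AVC-only peaks, with scores from 4.46 to 5.13. One unit below it, at 46, there were 298 peaks that met the rest of the rule, with scores from 4.32 to 4.98. Widths from 500 to under 510 bp were seen for 15 AVC-only peaks, and 11 peaks of 490 to under 500 bp met the rest of the rule. The nearest chamber peak lay over 1000 and up to 1100 bp away for 39 AVC-only peaks, and 900 to 1000 bp away for 42 high-signal broad peaks that were left out. Peaks just inside and just outside each limit were thus alike in number and value.

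Within the broad peaks, the AVC-only share fell with the signal value. It was 51.8% (49.2 to 54.4) at values of 47 to 49, with 741 of 1431 peaks, 42.7% (40.2 to 45.1) at 50 to 54, 35.9% (32.9 to 38.9) at 55 to 59, and 24.5% (22.0 to 27.2) at 60 to 69. It was 15.4% (12.3 to 18.9) at 70 to 79, 8.56% (6.10 to 11.6) at 80 to 99, and 2.95% (1.42 to 5.36) at 100 or more, where 10 of 339 peaks were AVC-only. In every signal class the AVC-only peaks had a larger median width than the overlapping ones. The respective medians were 704 and 641 bp at 47 to 49, and 1404 and 1030 bp at 100 or more. That last class was not at equal signal, as its 10 AVC-only peaks ended at 127 and its overlapping peaks reached 572185. Over the AVC-only peaks the Spearman correlation of signal and width was 0.43, and over the overlapping peaks 0.48, each across peaks of 1 library. These are descriptions, since signal and width were part of the rule.

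**Figure D2:**
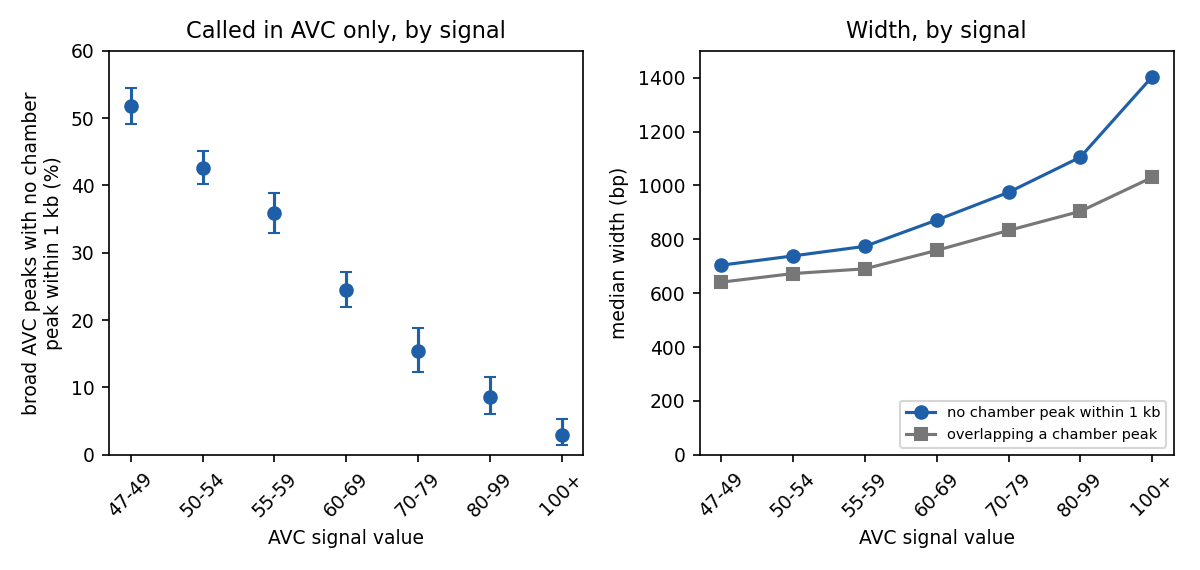
Left, the percentage of high-signal broad AVC peaks with no chamber peak within 1 kb in 7 classes of AVC signal, with exact 95% intervals; right, the median width of AVC-only (blue) and overlapping (grey) peaks in the same classes. The share falls from 51.8% to 2.95%, and the AVC-only median width is the larger one in all 7 classes.

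The chamber value at these places is known only to lie below what was called. The lowest chamber signal called on an autosome was between 23 and 25. The AVC-only peaks had AVC values of 1.88 to 5.43 times the lowest chamber value called on their chromosome, with a median of 2.17 (2.04 to 2.39). For the 3432 overlapping broad peaks in the same signal range, the AVC value was 1.29 times that of the strongest overlapping chamber peak at the median (0.85 to 1.81). Of these, 404 (11.8%) had a ratio at or above 2.17. The denominators differ, being the lowest value called on a chromosome for AVC-only peaks and a called partner for overlapping ones. The signal limit of 47 also sets a floor for the first ratio, so nothing is read from this count. The values are not scaled between the lists, so a ratio of 1 does not mark equal acetylation. The strongest partner of an overlapping peak had a median value of 38 (30 to 55) in the AVC class of 47 to 49, and of 125 (72 to 194) in the class of 100 or more.

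The 10 AVC-only peaks of highest signal lay on chromosomes 3, 7, 8, 9, 17 and 18. The highest value, 127, belonged to a peak of 1420 bp on chromosome 8 from 46972175 to 46973594, with a score of 15.44. A chamber peak of value 30 lay 1453 bp away, and 22 other AVC peaks and 8 chamber peaks lay more than 1 kb and at most 50 kb from it. None of these chamber peaks was both broad and of high signal, so the peak stood in a region dense in AVC peaks without a strong broad chamber peak.

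The next peak, with a value of 125 and a width of 1375 bp, was on chromosome 7 from 59168891 to 59170265. Its surroundings differed from those of the first: no chamber peak lay within 50 kb, and 3 other AVC peaks did. The nearest chamber peak, 70403 bp away, was strong but narrow, with a value of 124 and a width of 102 bp, and overlapped another AVC peak. A peak on chromosome 3 from 31158813 to 31160073 (value 102) was similarly isolated, with the nearest chamber peak at 124310 bp and 2 other AVC peaks within 50 kb.

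Chromosome 9 carried 3 of the 10. The peak from 77868843 to 77870229 had a value of 123 and a chamber peak of value 33 at 4233 bp. The peak from 35148962 to 35150286 had a value of 110, with a chamber peak of value 26 at 4596 bp. The peak from 115670156 to 115671098 had a value of 101 and was the narrowest of the 10, at 943 bp, and the closest to a chamber peak, of value 27 at 1267 bp. All 3 had between 3 and 5 chamber peaks within 50 kb, and none of those was both broad and of high signal.

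The remaining 4 of the 10 lay on chromosomes 18, 7, 17 and 3. On chromosome 18 the peak from 80765167 to 80766590 had a value of 112, and on chromosome 7 the peak from 104319753 to 104321229 had a value of 107. On chromosome 17 the peak from 75416934 to 75418652, with a value of 102, was also the widest AVC-only peak, at 1719 bp. It was the one peak of the 10 with a high-signal broad chamber peak within 50 kb, in a region with 18 other AVC and 10 chamber peaks. On chromosome 3 the peak from 152216435 to 152217872 had a value of 101 and lay with 2 other AVC-only peaks within 50 kb. The nearest chamber peaks of these 4 had values from 23 to 29, close to the lowest value called.

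The next widest AVC-only peaks were less high. They spanned 1676 bp on chromosome 16 from 56967203 to 56968878 (value 83), 1620 bp on chromosome 10 from 22592274 to 22593893 (93), 1559 bp on chromosome 1 from 185688883 to 185690441 (82) and 1487 bp on chromosome 9 from 107896410 to 107897896 (87). The chromosome 16 peak had no other AVC peak and 1 chamber peak between 1 and 50 kb from it. The chromosome 9 peak had 9 other AVC and 11 chamber peaks there. Wide AVC-only peaks thus occurred both without another AVC peak in that range and in dense regions.

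Most AVC-only peaks lay at some distance from the chamber list, but few lay far from it. The median distance to the nearest chamber peak was 9285 bp (95% interval 8697 to 9936), with quartiles of 3593 and 23123 bp. The nearest chamber peak was 1 to 2 kb away for 266 of them (12.2%), 2 to 5 kb for 449 (20.6%), 5 to 10 kb for 424 (19.5%), 10 to 20 kb for 406 (18.7%), 20 to 50 kb for 407 (18.7%), 50 to 100 kb for 147 (6.76%) and over 100 kb for 76 (3.49%). AVC peaks under the signal limit that met the rest of the rule, 22591 in number, lay farther away, with a median of 13870 bp (13501 to 14217). Chamber-only peaks of the corresponding rule had a median of 5566 bp (5144 to 6081) to the nearest AVC peak, in a list that is longer than the chamber list. Over 4 signal classes of AVC-only peaks the median distance was 10667 bp (9477 to 12429) at 47 to 49, 9058 bp (8262 to 10003) at 50 to 59, 7777 bp (6614 to 9471) at 60 to 69 and 6995 bp (5498 to 8585) at 70 to 127.

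**Figure D3:**
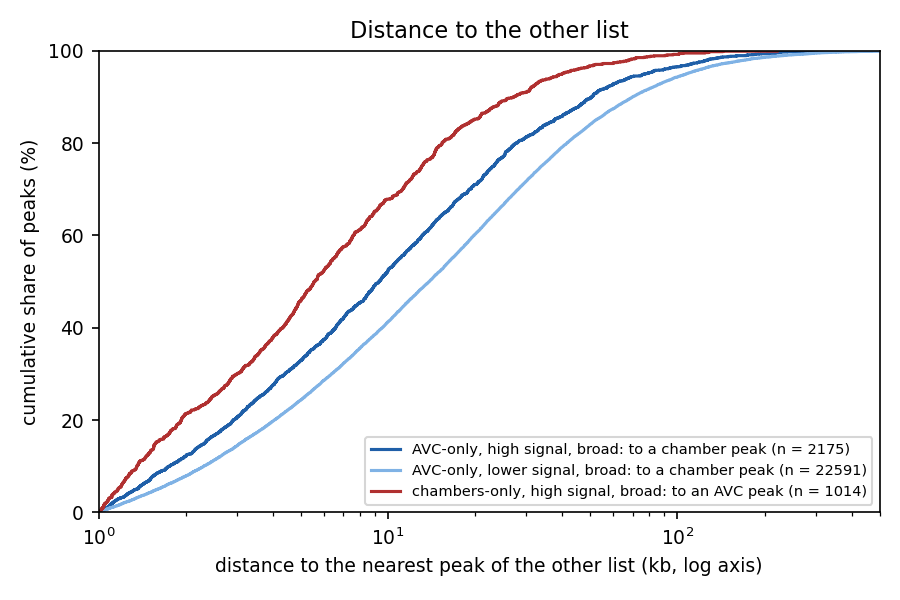
Cumulative share of peaks by distance to the nearest peak of the other list (kb, log axis), for AVC-only peaks (dark blue), AVC peaks of lower signal that met the rest of the rule (light blue) and chamber-only peaks of the corresponding rule (red). All curves start at 1 kb by the rule, and the AVC-only curve runs between the others, with medians of 9285, 13870 and 5566 bp.

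The most distant ones were of modest signal, and were picked after their values were seen. The farthest lay on chromosome 3 from 72688896 to 72689720, with a value of 54, and was 462306 bp from the nearest chamber peak with no other AVC peak between 1 and 50 kb from it. The next was on chromosome 15 from 22686469 to 22687004 (value 47, 317041 bp), followed by chromosome 5 from 78334030 to 78334662 (65, 315419 bp), chromosome 2 from 143152788 to 143153549 (50, 263246 bp) and chromosome 11 from 8044486 to 8045329 (49, 240517 bp). These 5 peaks had between 0 and 3 other AVC peaks within 50 kb.

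Most chamber peaks nearest to AVC-only peaks were under the chamber signal limit, as were most chamber peaks of the whole list. Of the 2175 nearest chamber peaks, 231 (10.6%, 9.36 to 12.0) were at or above the chamber value of rank 10000, which was also 47, against 15.2% (14.9 to 15.5) of all autosomal chamber peaks. A nearest chamber peak that overlapped another AVC peak was found for 683 (31.4%, 29.5 to 33.4), against 31.7% (31.3 to 32.0) of all autosomal chamber peaks, a difference within the counting intervals. A chamber peak can be the nearest one of several AVC-only peaks.

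Chamber peaks had been called in the wider surroundings of most AVC-only peaks. Counting only peaks over 1 kb and at most 50 kb away, so that overlapping partners do not enter, 1952 of the 2175 (89.7%, 88.4 to 91.0) had a chamber peak, with a median number of 4. The same share was 96.9% (96.3 to 97.4) for overlapping broad peaks, with a median number of 8. It was 84.1% (83.6 to 84.5), with a median number of 3, for AVC peaks of lower signal that met the rest of the rule. A high-signal broad chamber peak stood in this range for 611 (28.1%, 26.2 to 30.03). For the remaining 1341 (61.7%) all chamber peaks in the range were weaker or narrower, and 223 (10.3%) had none. The overlapping broad peaks had a high-signal broad chamber peak in the same range in 54.8% (53.2 to 56.4), and in 54.4% when limited to the signal range of the AVC-only peaks. AVC peaks of lower signal that met the rest of the rule had one in 19.4% (18.9 to 19.95).

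The number of other AVC peaks differed between these settings. AVC-only peaks with a high-signal broad chamber peak in range had a median of 11 other AVC peaks there, those with other chamber peaks alone had 6, and those without any had 2. The median signal of these sets was 52, 52 and 51, and the median width 755, 757 and 752 bp. At least 1 other AVC peak stood between 1 and 50 kb away for 2121 AVC-only peaks (97.5%), and 24 had no other peak of either list within 50 kb. Directly beside them, within 1 kb, 537 (24.7%, 22.9 to 26.6) had another AVC peak, and for 19 of them such a neighbour overlapped a chamber peak. The rule bars chamber peaks within 1 kb of an AVC-only peak and so keeps this last count low. Nothing is read from it.

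AVC-only peaks differed from overlapping ones more in their overlapping neighbours than in their AVC-only ones. Overlapping peaks also stood in denser surroundings. Over 1 kb and within 50 kb they had medians of 9 other AVC and 8 chamber peaks, against 7 and 4 for AVC-only peaks. Another high-signal broad AVC peak was in that range for 60.2% of overlapping and 43.2% of AVC-only peaks. How far the shares below go with this density was not tested. An overlapping high-signal broad AVC peak over 1 kb and within 50 kb was found for 559 AVC-only peaks (25.7%, 23.9 to 27.6) and for 48.6% (46.97 to 50.3) of overlapping ones. An AVC-only neighbour in that range was found for 522 AVC-only peaks (24.0%, 22.2 to 25.9) and for 21.1% (19.8 to 22.5) of overlapping ones. At signal values of 47 to 49 this last share was 20.9% (18.0 to 24.03) for AVC-only and 20.9% (17.5 to 24.7) for overlapping peaks. Where a high-signal broad AVC peak stood in that range, the nearest one was AVC-only for 413 of 940 AVC-only peaks (43.9%, 40.7 to 47.2) and for 435 of 2170 overlapping peaks (20.05%, 18.4 to 21.8), while 34.0% of all high-signal broad AVC peaks were AVC-only. Chamber-only peaks of the corresponding rule stood in this range for 159 AVC-only peaks (7.31%, 6.25 to 8.49) and for 15.0% (13.8 to 16.2) of overlapping ones. Peaks of 1 region share their surroundings, so these intervals are too narrow.

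Most AVC-only peaks stood apart from other AVC-only peaks, although 97.5% had some other AVC peak between 1 and 50 kb away. When AVC-only peaks within 50 kb of each other were joined, 1616 of the 2175 (74.3%, 72.4 to 76.1) remained unjoined and 366 formed pairs. The same grouping is not given for other classes of peaks, so these counts are a description. The other 193 (8.87%, 7.71 to 10.1) formed 58 groups of 3 or more. The largest groups had 5 AVC-only peaks, and there were 6 of these, on chromosomes 6, 7, 13 and 16, with 3 of them on chromosome 13. They took 2 forms, a compact one of 17.4 to 26.97 kb and a spread one of 86.4 and 105 kb. Another AVC-only peak stood between 1 and 50 kb away for 20.9% (18.0 to 24.03) of AVC-only peaks with a signal of 47 to 49. At 70 to 127 the share was 35.5% (27.05 to 44.8). The median number of any other AVC peaks within 50 kb was 6 and 9 in these 2 classes, and of chamber peaks 4 and 5.

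The group on chromosome 6, from 91140849 to 91159877, contained no chamber peak at all. Its 5 AVC-only peaks had values of 51, 52, 70, 58 and 57 in order of position, within 10 AVC peaks over 19.03 kb. The nearest chamber peak was 16140 bp from the last and 34207 bp from the first of them. In the 100 kb on both sides there were 7 more AVC and 3 chamber peaks. This was the group farthest from chamber calls among the 6.

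The first group on chromosome 13, from 12993389 to 13012095, held values of 57, 68, 68, 69 and 55 among 15 AVC peaks over 18.7 kb. It contained 1 chamber peak, of value 32, and the flanking 100 kb on both sides held 36 AVC and 2 chamber peaks. The third on that chromosome, from 56687543 to 56704984, held values of 57, 48, 70, 92 and 47 among 9 AVC peaks over 17.4 kb. Its highest peak, with a value of 92 and a width of 956 bp, spanned 56702916 to 56703871. The group contained 1 chamber peak, of value 26, and its flanks held 37 AVC and 7 chamber peaks. AVC calls thus outnumbered chamber calls within both groups and in their flanks, as they did for the other largest groups. The groups were picked by their AVC-only peaks and the AVC list was the longer one, so nothing is read from this.

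The compact group on chromosome 16, from 35479834 to 35506798, differed in its chamber calls. Its AVC-only peaks had values of 73, 75, 47, 54 and 47, and 5 of the 17 AVC peaks in its 26.97 kb overlapped chamber peaks. There were 6 chamber peaks, of which 2 reached the chamber limit of 47, the highest with 58. Every AVC-only peak of the group had a chamber peak between 1086 and 2346 bp away. This group held as many overlapping AVC peaks as AVC-only ones.

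The spread groups also held chamber peaks between their members. On chromosome 13 from 36181645 to 36268055, AVC-only peaks of 61, 52, 51, 52 and 52 lay among 16 AVC and 11 chamber peaks, the strongest of the latter with a value of 161. That chamber peak was narrow, under 500 bp, and overlapped an equally narrow-class AVC peak of value 261. On chromosome 7 from 122708570 to 122813782, AVC-only peaks of 47, 48, 58, 47 and 71 lay among 29 AVC and 9 chamber peaks, the strongest of the latter with a value of 40. The first of these contained 2 chamber peaks at or above 47 and the second contained none.

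**Figure D4:**
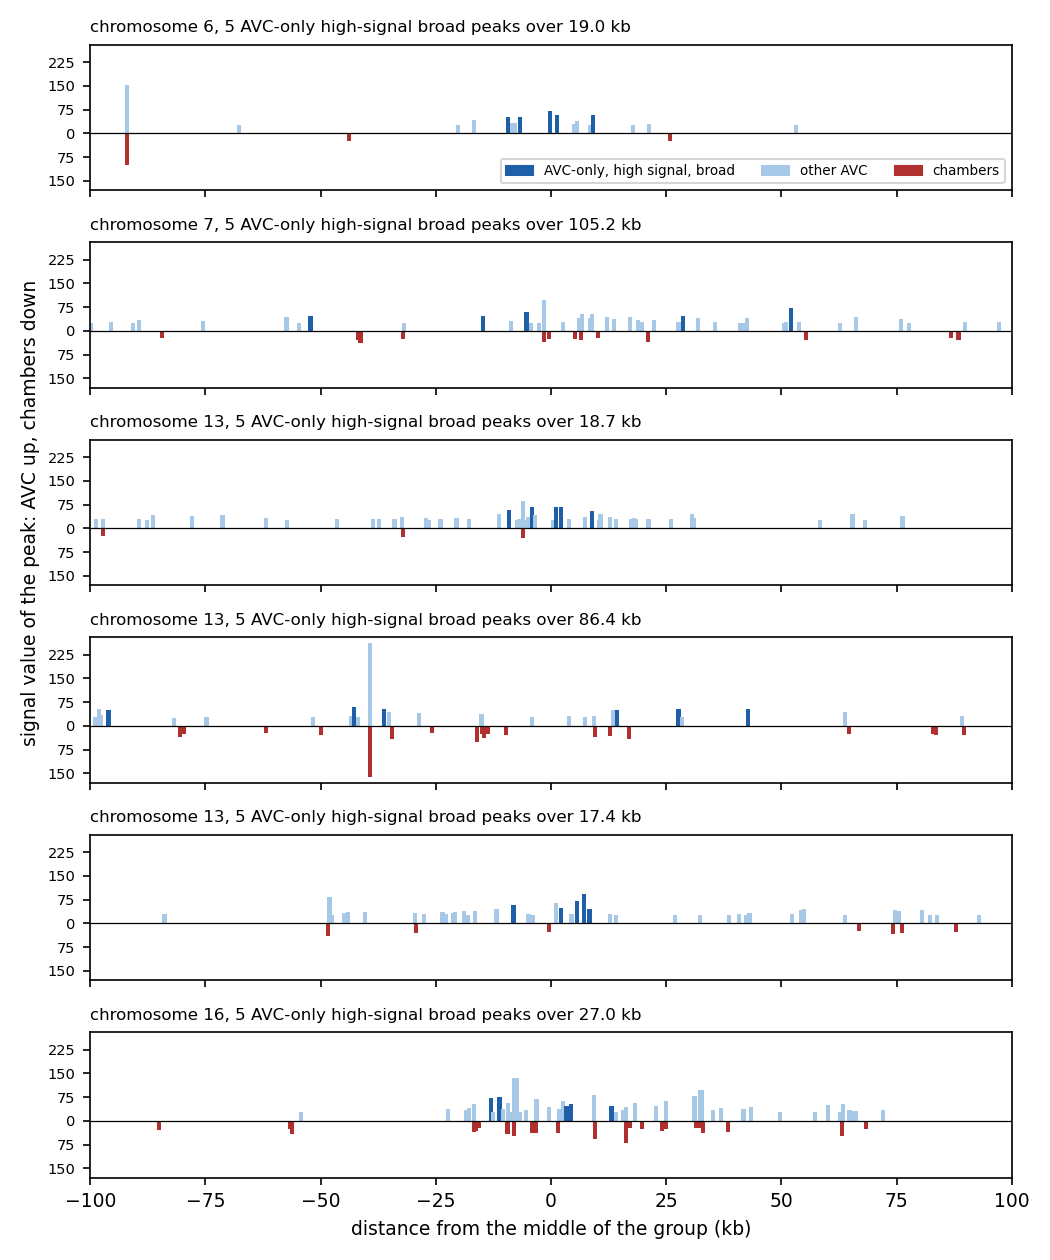
Signal values of all peaks (AVC upward, chambers downward) around the middle of the 6 groups with 5 AVC-only peaks, by distance in kb; dark blue bars are AVC-only peaks, light blue bars other AVC peaks and red bars chamber peaks, drawn at least 0.9 kb wide. The chromosome 6 group has no red bar among its dark blue ones, while every other group has, from 1 to 11 chamber peaks.

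AVC-only peaks occurred on all 19 autosomes, from 50 on chromosome 19 to 195 on chromosome 1. As a share of the high-signal broad AVC peaks of a chromosome they ran from 24.2% (20.2 to 28.5) on chromosome 11 to 45.9% (41.1 to 50.8) on chromosome 1, and chromosomes 17 and 19 were also low, at 27.2% (21.6 to 33.4) and 26.6% (20.4 to 33.5). Per Mb, the density went from 0.568 on chromosome 14 to 1.11 on chromosome 9. This density was set against the number of protein-coding genes per Mb across the 19 autosomes. The Spearman correlation was -0.06, and between -0.24 and 0.04 when any single chromosome was left out (Pearson -0.02). For the overlapping broad peaks it was 0.62 (0.55 to 0.77; Pearson 0.77), and for chamber-only peaks of the corresponding rule 0.33 (0.21 to 0.52; Pearson 0.41). The densities of overlapping peaks thus followed gene density across chromosomes, and those of AVC-only peaks did not follow it visibly. The AVC-only share of high-signal broad AVC peaks, which the overlapping peaks enter as well, was lower on gene-rich chromosomes. Its Spearman correlation with gene density was -0.43 (-0.51 to -0.34 with any single chromosome left out, Pearson -0.64). Chromosomes share 1 library and are not replicates, and peaks were called chromosome by chromosome, which left the lowest AVC value called between 24 and 27.

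**Figure D5:**
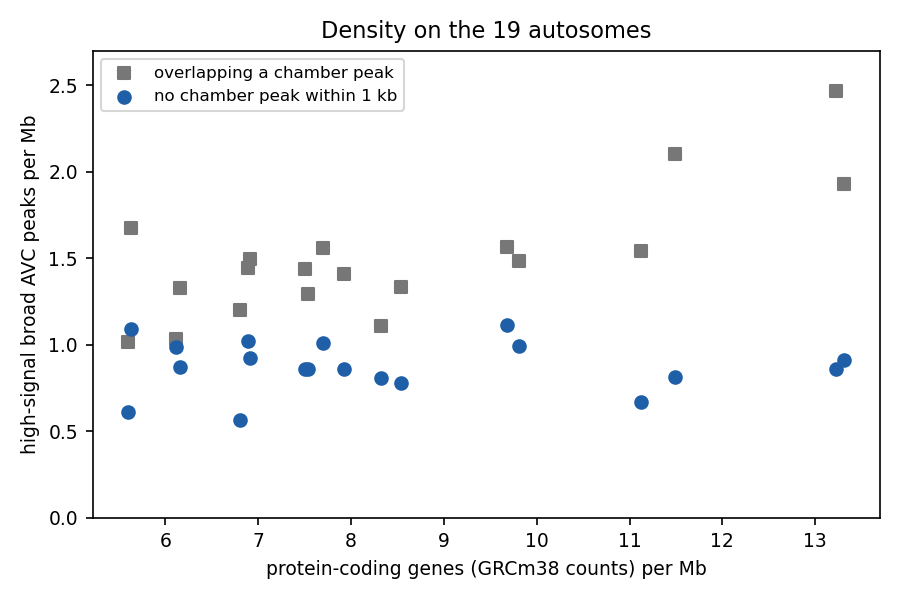
High-signal broad AVC peaks per Mb against protein-coding genes per Mb on the 19 autosomes, for AVC-only (blue circles) and overlapping (grey squares) peaks. Overlapping peaks are denser on gene-rich chromosomes, up to 2.47 per Mb on chromosome 11, while AVC-only peaks stay between 0.568 and 1.11 per Mb.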

How the data were processed

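H3K27ac ChIP-seq of sorted AVC and chamber cells was analysed from 1 peak list per tissue. Per the file headers, the authors called peaks with OccuPeak 1.3, chromosome by chromosome, at a Log(ER) threshold of 2, for reads of 50 bases and modelled fragments of 60.5 (AVC) or 68 (chambers) bases. The score is the deposited Log(ER), of unstated log base. The signal is a deposited whole number per peak that the headers do not name, reads or pile-up height, not scaled between lists. Bowtie, SAMtools and the mm9 build are named in the submitters' processing notes, without versions; whether a control library was used is not stated in the sources at hand. Positions are 1-based. The members and lists were chosen with earlier results of these data known.

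Gaps between peak edges were searched in Python 3.11.15 with scipy 1.17.1, pandas 2.3.3 and numpy 2.4.6 (figures: matplotlib 3.10.9), tested on simulated data, and the count of 2175 was checked with bedtools 2.31.1. Peaks named are the 10 of highest signal, the 5 widest and the largest groups within 50 kb, tied ones included. Numbers of protein-coding genes per chromosome come from the RefSeq table of GRCm38, of which no coordinate was used; lengths per chromosome are the end of the last mm9 peak. Other settings tried changed the signal, width and distance limits, the joining distance and the chamber list.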

Additional observations from a re-analysis of the deposited data

Results flagged for a closer look

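The sex chromosomes were outside the rule and entered no comparison. On the X chromosome, 7 AVC peaks met its signal, width and distance limits. They had signal values from 48 to 69, among 17 high-signal broad AVC peaks, of which 9 overlapped a chamber peak. The AVC-only share was 41.2% (exact 95% interval 18.4 to 67.1), an interval that includes the autosomal 34.0%. On the Y chromosome none of 15 AVC peaks reached the signal and width limits.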

How the results depend on the processing

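The number of AVC-only peaks, 2175, stayed within 1.5 times when peaks were ranked by score (2145, of which 1995 were shared), with widths from 300 bp (2294), with overlap as the only bar (2795), with no chamber peak within 5 kb (1460), without the first 1 Mb of each chromosome's peaks (2157), and with a gap of exactly 1 kb counted as outside (2177). It moved to 393 at the value of the 5000th AVC peak, to 7331 at that of the 20000th, and to 852 at widths from 800 bp, as such limits do by construction. AVC-only peaks in groups of 3 or more numbered 91 when joined within 25 kb and 350 within 100 kb. The median distance to a chamber peak was 19904 bp to the stronger 50% of chamber peaks and 7481 bp for the 393 strongest peaks.

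The settings of the next 2 results were chosen after seeing the data. With high-signal broad neighbours nearer than 1 kb included, where the rule bars chamber peaks, the nearest one was AVC-only for 46.7% of the AVC-only and 15.9% of the overlapping peaks that had one within 50 kb. These shares of peaks with a neighbour were 50.5% and 9.07% within 10 kb, 41.1% and 6.62% with no chamber peak within 5 kb, and 33.9% and 6.95% at the value of the 5000th peak. A high-signal broad chamber peak was in range for 13.1% and 39.5% within 20 kb, and for 41.3% and 68.1% within 100 kb. The direction between the classes was the same in all of these. For the nearest neighbour the rule sets part of that direction, since chamber peaks are barred within 1 kb of an AVC-only peak, or 5 kb in that setting. Nothing is read from the sameness of direction in those shares. The planned gene, promoter and motif results were not run for want of an mm9 reference here. No paired analysis was possible because the AVC and the chambers have a single library each. The unknown depth limits what a missing chamber peak shows.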
